A study of Mus musculus with 36 samples.

Results

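The genes described here are the 3 Runx transcription factor genes (Runx1, Runx2 and Runx3), their shared partner Cbfb, the regulators Sp7 and Mef2c, and 4 genes of hypertrophic cartilage and mineralising bone (Mmp13, Ibsp, Spp1 and Alpl). They are 10 of 20711 protein-coding genes with an open region nearby. They were chosen by name, and the regions counted for each are those that overlap its gene body or the 200 kb on either side. Together these windows held 227 of the 65543 open regions of the study. The samples were chondrocytes, per the labels, microdissected from hands and feet of mice of the FVB/NJ strain at stage E15.5. Their open chromatin was mapped by ATAC-seq, which inserts sequencing adapters into accessible DNA. FVB/NJ is an inbred strain, no allele or treatment was compared, and each library pooled right and left elements of 3 to 5 embryos of 1 litter (6 to 10 limbs). The 36 libraries formed 12 groups of 3, which cross limb (forelimb or hindlimb), element (phalanges against metapodials, that is metacarpals or metatarsals) and digit, with I, III and V sampled. The series title places them in the evolution of the hand and foot skeleton.

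Chondrocytes of a growing cartilage element leave the cell cycle, enlarge and become hypertrophic, and their matrix is then mineralised and replaced by bone. Runx2 and Runx3 promote this step, each bound to Cbfb, which raises the affinity of Runx proteins for DNA, while Mef2c acts with them in hypertrophy and Sp7 is required for osteoblasts. Runx1 is best known from blood formation and is also present in cartilage progenitors. Mmp13 (a collagenase), Ibsp (bone sialoprotein), Spp1 (osteopontin) and Alpl (the alkaline phosphatase of mineralising matrix) are known targets or products of the same cells. Runx genes can be transcribed from a distal and a proximal promoter, which give proteins with different first residues.

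The files held 1 peak list per group, made on pooled libraries, so each list was a single measurement and the spread was taken between lists. Lists held 36194 to 53276 peaks, and all 4 digit III lists (44289 to 53276) were longer than 7 of the other 8 lists, the exception being metatarsal digit I at 46582. The comparisons were therefore run with all lines and at equal list length, the 36194 most significant peaks of each list. A region counted as called where any peak of the list touched it by at least 1 bp. A gene passed when the two-sided exact permutation test on its called regions per list, with labels swapped within the other factors, gave p at or under 0.05, unadjusted. The smallest p was 0.0312 for limb or element and 0.0123 for a digit, and no gene passed adjustment over all genes, so each count is read against the percentage of all genes that passed. Read depth per library was unknown. In bulk chromatin, fewer cells of a type with an open region and a weaker opening in every cell cannot be told apart.

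Of the chondrocyte marker promoters (300 bases from 250 before to 50 after a RefSeq start site), 6 of 8 were covered by a peak in every list, among them Acan, Col9a1 and Matn3, while Sox5 was covered in none. Promoters of other cell types were covered too: 4 of 6 endothelial ones (Kdr, Tek, Erg and Cldn5) and 4 of 4 nerve and Schwann cell ones in all lists. So were 2 of 5 epidermal ones, 2 of 4 osteoclast ones (Acp5 and Calcr), 1 of 4 tendon and ligament ones and 1 of 8 skeletal muscle ones. Of 8 blood and macrophage promoters, 1 to 3 were covered per list and none in all, with Ptprc and Gata1 covered in no list. A covered promoter is open and need not be transcribed.

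The sequences shown are those of the distal Runx promoters, which share a stretch, and of matrix gene promoters covered in all, 1 or 0 lists. RefSeq start sites (GRCm38.p6, the coordinates of mm10) were matched for 9 of the 10 members, all but Sp7, and gave 15 promoters. For Runx2 only the distal start site was among them. The distal promoters of all 3 Runx genes carry the same 18-base stretch with 2 copies of the RUNX core, the motif bound by Runx proteins. It was found in 3 of 21263 promoters on either strand, those of Runx1, Runx2 and Runx3. The 30 bases round it are given 5′ to 3′ on the strand of the gene, with RUNX cores in capitals. They begin at positions 21, 16 and -142 from the start site on chr16:92826025-92826054 (minus strand), chr17:44814583-44814612 (minus strand) and chr4:135120503-135120532 (plus strand).
Runx1 distal: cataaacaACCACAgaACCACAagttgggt
Runx2 distal: cacaaacaACCACAgaACCACAagTGCGGT
Runx3 distal: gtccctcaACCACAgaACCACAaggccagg

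The motif was searched as TGTGGT or TGCGGT on both strands. The distal promoter of Runx2 held 4 matches, those of Runx1 and Runx3 held 2 each, and the proximal ones of Runx1 and Runx3 held 0. Over all promoters 21.6% held at least 1 match, 2.64% at least 2 and 0.235% at least 3. The distal Runx3 promoter is shown whole up to its start site because its coverage separated the elements at equal list length, though not with all lines. It lies on chr4:135120395-135120644, plus strand, again with RUNX cores in capitals.
Runx3 distal: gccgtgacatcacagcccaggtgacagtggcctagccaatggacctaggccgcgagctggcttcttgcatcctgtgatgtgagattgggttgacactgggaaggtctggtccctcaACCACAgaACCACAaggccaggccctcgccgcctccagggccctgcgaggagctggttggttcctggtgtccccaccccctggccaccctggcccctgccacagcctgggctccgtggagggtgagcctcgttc

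The 250 bases upstream of 3 target genes are shown because their promoters differed in coverage. Alpl (chr4:137796385-137796634, minus strand) was covered in all 12 lists, Spp1 (first start site, chr5:104434861-104435110, plus strand) in 1 and Mmp13 (chr9:7272264-7272513, plus strand) in none. Capitals mark GC boxes (GGGCGG on either strand, overlapping here) in Alpl and the RUNX core in Spp1 and Mmp13.
Alpl: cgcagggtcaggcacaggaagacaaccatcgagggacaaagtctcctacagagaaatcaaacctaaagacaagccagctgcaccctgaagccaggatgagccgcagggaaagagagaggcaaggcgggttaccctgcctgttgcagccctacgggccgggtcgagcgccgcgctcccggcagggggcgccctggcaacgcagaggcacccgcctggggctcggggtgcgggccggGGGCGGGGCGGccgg
Spp1: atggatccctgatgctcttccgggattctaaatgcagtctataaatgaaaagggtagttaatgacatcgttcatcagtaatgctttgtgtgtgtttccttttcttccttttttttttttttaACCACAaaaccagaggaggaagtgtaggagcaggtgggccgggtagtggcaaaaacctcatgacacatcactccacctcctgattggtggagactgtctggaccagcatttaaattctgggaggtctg
Mmp13: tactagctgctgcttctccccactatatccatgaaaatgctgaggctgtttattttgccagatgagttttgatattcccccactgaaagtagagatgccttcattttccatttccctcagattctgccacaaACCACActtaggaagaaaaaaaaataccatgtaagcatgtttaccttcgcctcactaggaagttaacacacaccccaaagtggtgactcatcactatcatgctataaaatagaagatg

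Within the 300 bases of each promoter, Alpl held 3 GC boxes. Mmp13 and Spp1 each held 1 RUNX core and 1 match to the TATA box letters (TATAAA, in the strand of the gene), with a GC content of 43.7% and 45.3%. The TATAAA of Mmp13 lies near the start site and that of Spp1 toward the upstream end of the bases shown. The median promoter had 56.3% GC. GC boxes were present in 46.2% of all promoters and TATA boxes in 8.26%. The MEF2 site was searched on both strands as CTAWWWWTAR (W for A or T, R for A or G). A match was found in none of the 15 member promoters and in 1.66% of all promoters. Other forms of the site were not searched. These matches describe the letters only.

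Coverage of start sites differed among the members. Of the 15 member promoters 5 were covered in all 12 lists, against 60.3% of all promoters: the proximal ones of Runx1 and Runx3, that of Cbfb, the second of Mef2c and the first of Alpl. Covered in no list were 3 of 15, against 32.1% of all promoters, namely Mmp13, the second start site of Spp1 and the second of Alpl. Ibsp was covered only in metatarsal digit III and Spp1 only in metacarpal digit III, and neither was covered at equal list length. Peaks at the 5 start sites covered in all lists ranked high in their lists, with a median rank within the top 8.2% for Cbfb, 11.0% for proximal Runx1, 14.4% for the second of Mef2c, 24.6% for proximal Runx3 and 32.2% for Alpl. Ranks use the authors' own significance of each peak.

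The distal Runx promoters were covered in fewer lists and mostly in phalanges. That of Runx3 was covered in all 6 phalanx lists and in 2 of 6 metapodial lists (metacarpal digit III and metatarsal digit I), and at equal list length in all 6 phalanx lists and 0 metapodial lists. That of Runx2 was covered in 3 lists, hand phalanges digits III and V and foot phalanges digit III, and in 0 at equal list length, with peaks whose median rank lay at 94.6% of the list. That of Runx1 was covered in 5 phalanx and 2 metapodial lists, and in 4 lists at equal length, 2 of each element. The first start site of Mef2c was covered in 4 phalanx lists and 1 metapodial list, and the third in 3 phalanx and 5 metapodial lists. For Sp7, a peak lay within 1 kb of the lower-coordinate end of the gene in all 12 lists and of the higher-coordinate end in 3 (metacarpal digit I and foot phalanges digits I and V). The map of covered start sites shows these patterns list by list.

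**Figure D1:**
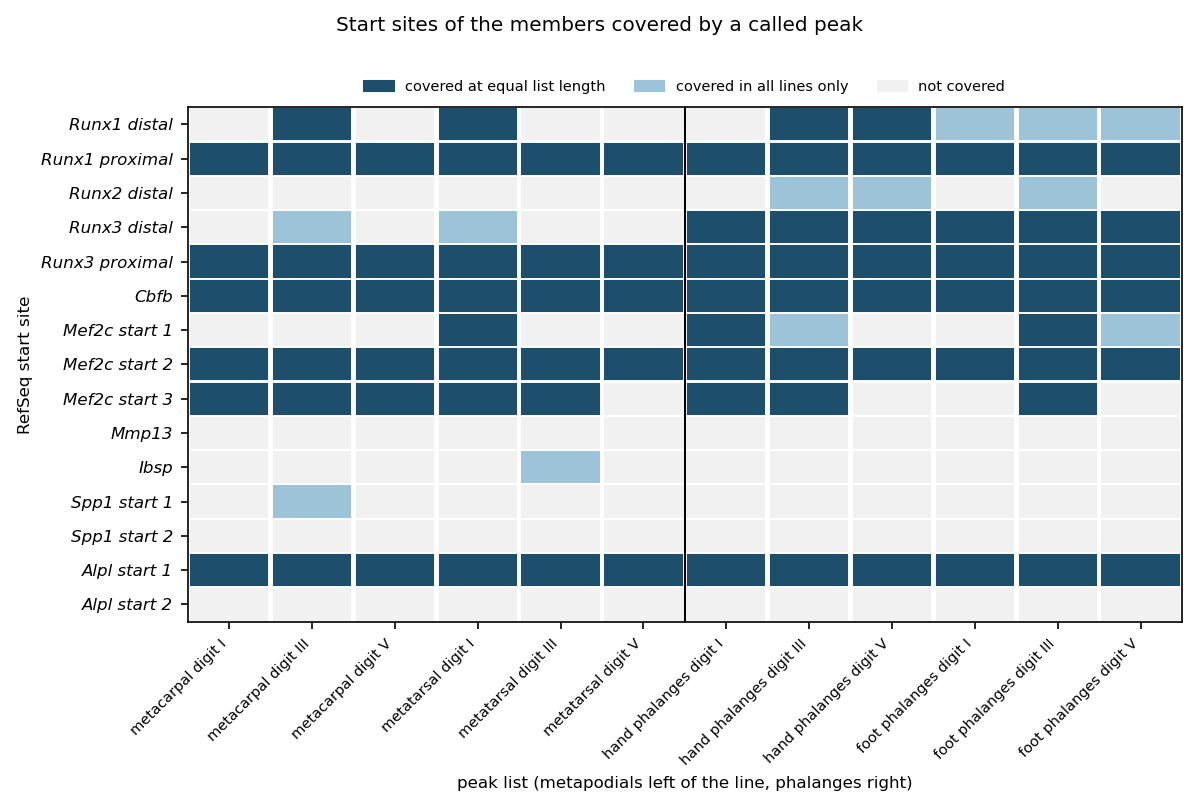
Start sites of 9 members (rows; Sp7 has no entry) by peak list (columns, metapodials left of the line and phalanges right), with dark cells covered at equal list length, light cells covered only in all lines and grey cells not covered. The distal Runx3 start site is dark in all 6 phalanx lists and in 0 metapodial lists, while 5 start sites are dark in every list.

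The number of regions, given here with all lines, differed widely among the members. Runx1 had 37 regions (chr16:92601466-92826074 for the gene), more than 98.8% of all genes had, and Runx3 (chr4:135120645-135177990) had 34. Mmp13 (chr9:7272514-7283333) had 4, none of them inside the gene, and 7.24% of genes had fewer. Runx2 (chr17:44495987-44814797) and Sp7 (chr15:102356603-102367035) had 26 each, and Cbfb (chr8:105170674-105217989) and Mef2c (chr13:83504017-83667079) 24 each. Ibsp had 24, Spp1 18 and Alpl 27. Window sizes differ with gene length, and per 100 kb the range was from 0.974 regions for Mmp13 to 7.43 for Runx3. Windows also hold other protein-coding genes: 21 others for Cbfb, 18 for Sp7, 7 for Ibsp and 6 each for Mmp13, Spp1 and Alpl. Those of Runx3 held 5, those of Runx1 and Runx2 2 each and that of Mef2c 0. Ibsp and Spp1 are neighbours and shared 17 regions, so their counts are not independent.

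**Figure D2:**
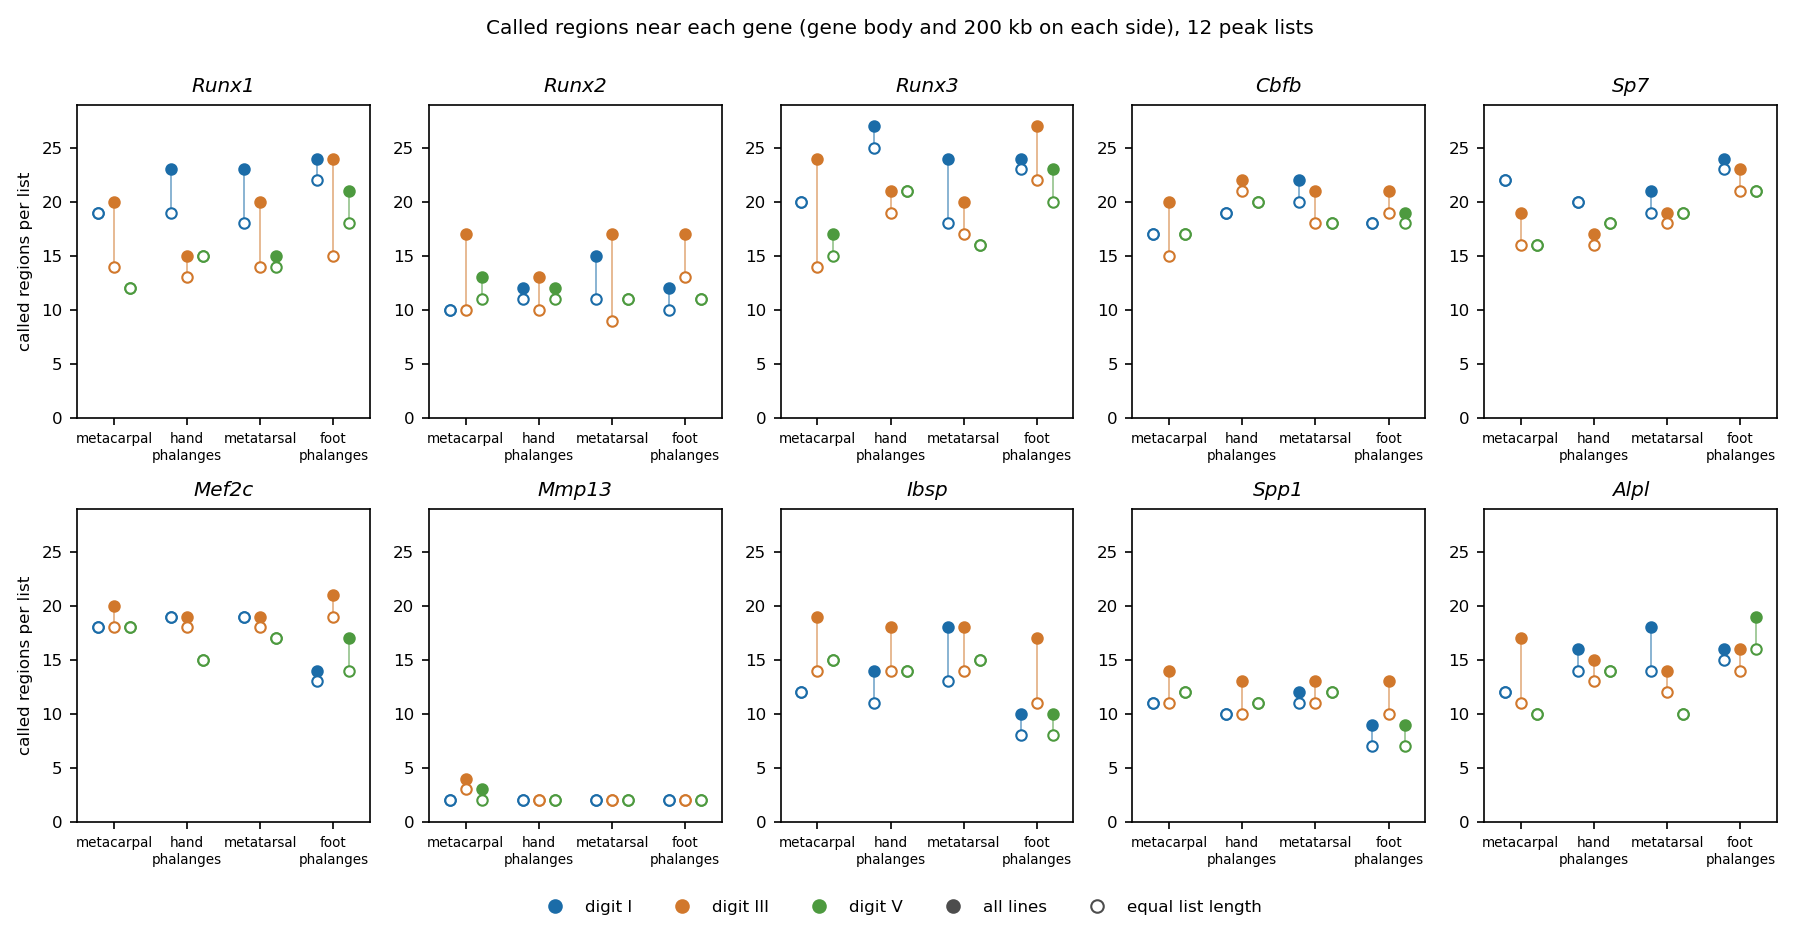
Called regions per list (y axis) for the 10 genes by group (x axis) and digit (colour), with filled points for all lines and open points at equal list length (an open point alone means that both are equal). The Runx2 digit III points fall from 13 to 17 with all lines to 9 to 13 at equal length, where the phalanx points of Runx3 lie between 19 and 25 and its metapodial points between 14 and 20.

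Of the 227 regions near the members 93 (41.0%) were called in all lists, against 35.6% of all regions. At equal list length it was 87 of 192 (45.3%) against 41.0%. Regions over start sites were called in all lists in 40 of 53 cases (75.5%, against 84.5% of such regions over the genome), and in 40 of 48 at equal length (83.3% against 86.0%). Those inside genes were called in all lists in 33 of 93 cases (35.5% against 25.3%), and in 32 of 76 at equal length (42.1% against 29.2%). Those between genes changed sides with list length, from 20 of 81 (24.7% against 21.1%) to 15 of 68 (22.1% against 24.3%). With all lines the share in all lists was lowest for Runx2 (6 of 26) and Runx1 (11 of 37) and highest for Cbfb (15 of 24) and Sp7 (16 of 26).

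The region called in all lists that was nearest a start site lay at the promoter for 5 of the 9 members with a RefSeq start site. It lay at a distance from the matched start sites for Runx2, Mmp13, Ibsp and Spp1. For Runx1 it was chr16:92692792-92702058, for Runx3 chr4:135144573-135160388, for Cbfb chr8:105168414-105173371, for Mef2c chr13:83522620-83528117 and for Alpl chr4:137794060-137797461. Mef2c had 24 regions in a window with 0 other protein-coding genes, and 12 of them were called in all lists. For Runx2 it was the start site of Supt3, 37.3 kb downstream of the distal Runx2 start and inside Runx2 (chr17:44776078-44778520). Runx2 had 4 more regions called in all lists inside the gene, centred 46.4, 77.3, 102.8 and 195.8 kb downstream of that start. No proximal Runx2 start site was matched, so whether any of these regions lies at a proximal promoter was not assessed. Sp7, with no start site in the table, had 1 region overlapping the gene that was called in all lists, over its lower-coordinate end (chr15:102354540-102359783).

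For the other matrix genes these regions were distal. That of Ibsp was 33.1 kb downstream of the start site, inside the neighbouring Mepe (chr5:104329879-104334867), and that of Spp1 17.7 kb downstream (chr5:104452652-104455181). A region 2.1 kb upstream of the Spp1 start (chr5:104432414-104433591) was called in 10 lists, all but foot phalanges digits I and V. The 2 such regions in the Mmp13 window lay at -87.2 and -95.0 kb from its start, both over start sites of other genes (Dcun1d5 at both, and Dync2h1 at the farther one).

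Phalanges against metapodials. With all lines 0 of 10 members passed, against 4.82% of all genes in either direction. At equal list length Runx3 and Alpl had more called regions in phalanges (2 of 10 members, against 5.58% of all genes) and Spp1 had fewer (1 of 10, against 3.47%). The smallest adjusted p over all genes was 0.302, so no gene passed adjustment. The median difference of the members was 1.08 regions, against 0.17 for all genes.

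Runx3 gave the largest difference among the members in this comparison. At equal length its phalanx lists held 25, 19 and 21 regions in the hand and 23, 22 and 20 in the foot (digits I, III and V), and its metapodial lists held 20, 14 and 15 in the hand and 18, 17 and 16 in the foot. The groups overlapped through metacarpal digit I, whose 20 regions equalled foot phalanges digit V and exceeded hand phalanges digit III. All other metapodial lists lay below all phalanx lists. Phalanx lists averaged 21.67 ± 2.16 and metapodial lists 16.67 ± 2.16 (SD over 6 lists), a difference of 5.0 (exact permutation p = 0.0312, the smallest possible). With all lines the difference was 3.67 (exact permutation p = 0.125). It was 3.33 with 100 kb and 1.67 with 10 kb round the gene, both with exact permutation p = 0.0312. Without metacarpal digit III it was 4.47 and without hand phalanges digit I 4.33, each with exact permutation p = 0.0625.

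Of the 30 Runx3 regions at equal length, 14 were called in more phalanx than metapodial lists and 4 in fewer. This split, like those given below for Alpl, Runx1 and Sp7, restates the calls behind the difference. No such split was made over all regions. The region over the distal start site (chr4:135117822-135122444, which also holds the start of Gm16225) was called in all 6 phalanx lists and in 0 metapodial lists. Within the broad region over the proximal start site, bases chr4:135155603-135159327 were covered by peaks of every phalanx list and of no metapodial list at equal length. With all lines a metatarsal digit I peak also lay over them. The 528 bp at chr4:135178176-135178703, just past the end of the gene, were covered in every phalanx list and no metapodial list at both lengths. They lie inside a region (chr4:135177669-135181060) called in 6 phalanx and 5 metapodial lists at equal length, and in 6 of each with all lines. Phalanx peaks there began at lower coordinates, so the stretch is the edge of a region open in both elements. Over the genome, 187 stretches of at least 200 bp were covered in every phalanx list and no metapodial list at equal length. With all lines it was 156. A further region at -175.9 kb from the distal start (chr4:134942700-134946823), named after its values were seen, was called in 5 phalanx lists and 0 metapodial lists at equal length.

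**Figure D3:**
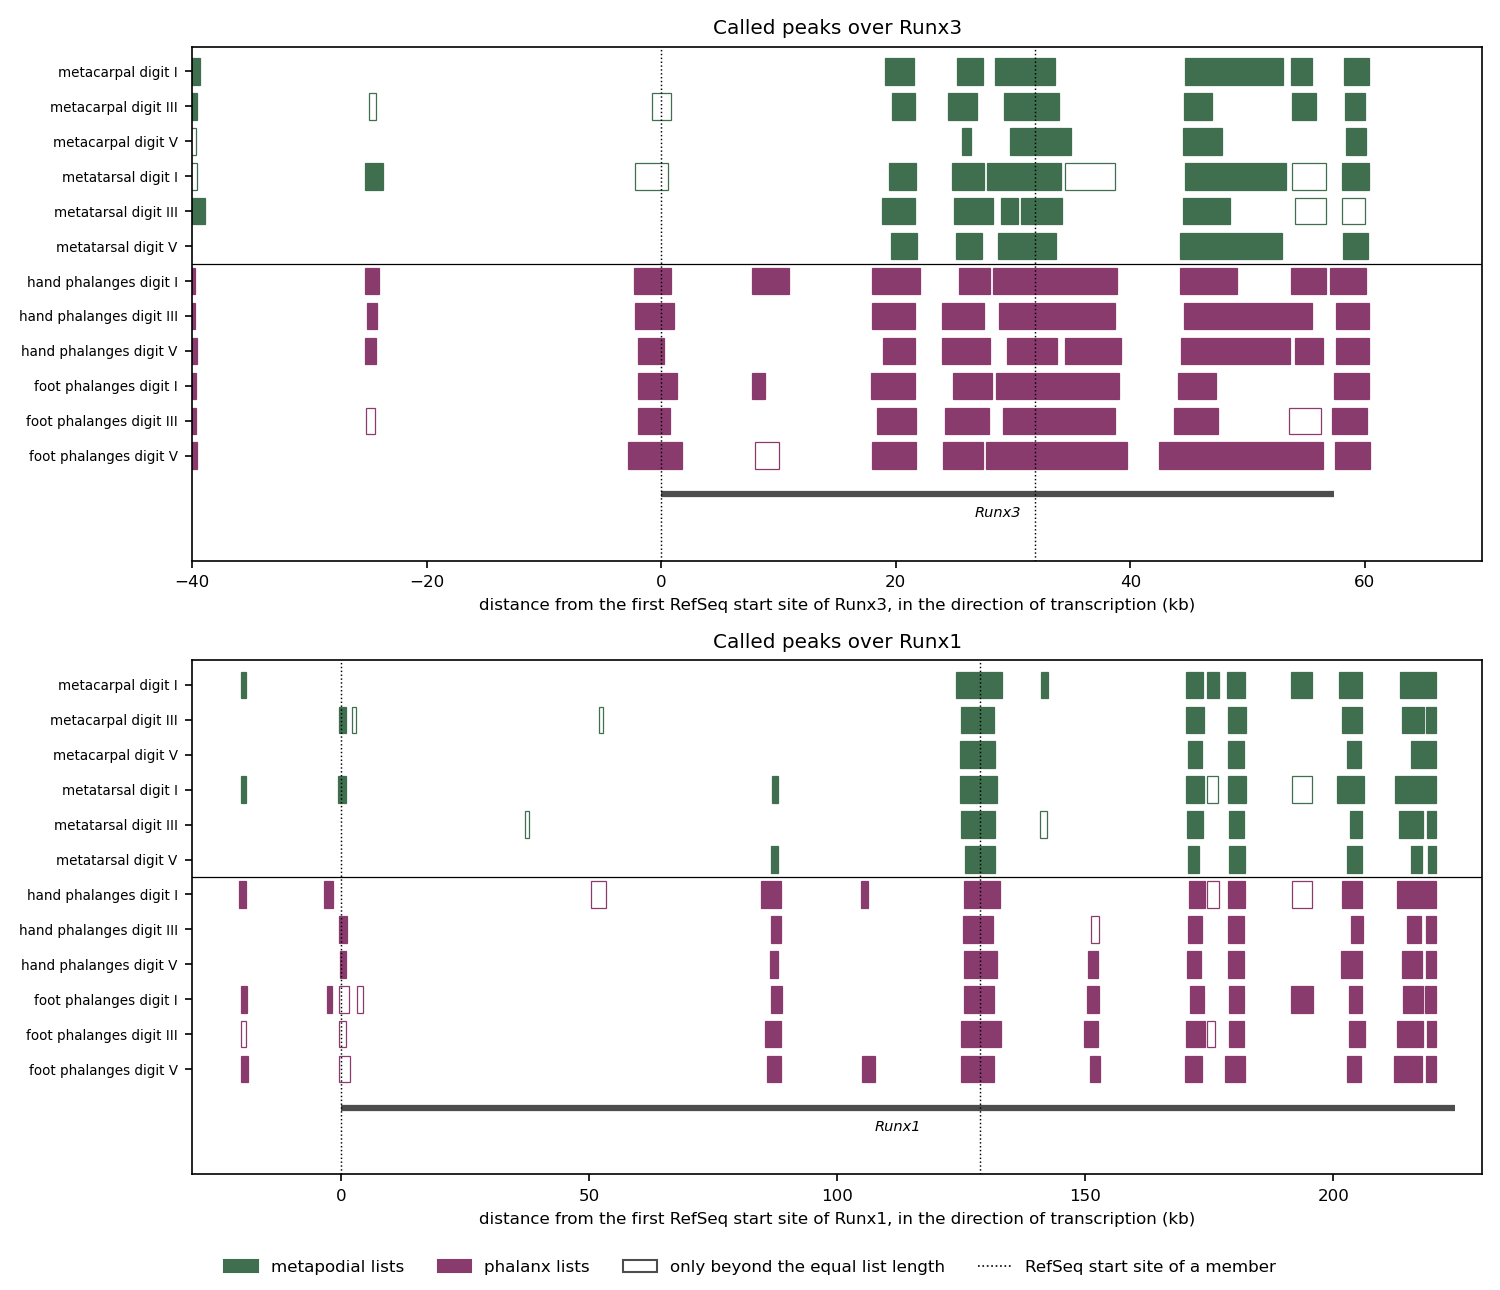
Called peaks by distance from the first RefSeq start site of Runx3 (upper panel) and Runx1 (lower panel), 1 row per list, with filled boxes kept at equal list length, open boxes only beyond it and dotted lines at start sites. At the distal Runx3 start filled boxes stand in all 6 phalanx rows and no metapodial row. Filled phalanx boxes over the proximal start reach farther past it than filled metapodial ones. An open metatarsal digit I box (34.402 to 38.677 kb) lies there too.

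Alpl and the Ibsp–Spp1 pair differed in opposite directions. Alpl phalanx lists ranged from 13 to 16 regions (median 14.0) and metapodial lists from 10 to 14 (median 11.5) and overlapped at 13 to 14, averaging 14.33 ± 1.03 and 11.5 ± 1.52 (SD over 6 lists). The difference of 2.83 had an exact permutation p of 0.0312. It was 1.5 with a window of 100 kb (exact permutation p = 0.0625) and 0.17 with 10 kb, and the promoter of Alpl itself was covered in every list. Without metacarpal digit III or without foot phalanges digit I the p was 0.0625, with differences of 2.73 and 2.7. Of the 19 Alpl regions at this length 9 were called in more phalanx lists and 1 in more metapodial lists. The Alpl window holds 6 other genes, and 2 of the 19 regions were centred inside Alpl.

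Spp1 phalanx lists ranged from 7 to 11 regions (median 10.0) and metapodial lists from 11 to 12 (median 11.0), so that the groups met at 11. They averaged 9.17 ± 1.72 and 11.33 ± 0.52 (SD over 6 lists), a difference of -2.17 (exact permutation p = 0.0312, and 0.0625 without metacarpal digit V, where it was -2.03). It was -2.17 with 100 kb and -0.5 with 10 kb (exact permutation p = 0.0312 and 0.25). The 2 lowest lists, foot phalanges digits I and V, held 7 each. Ibsp, which shared 13 regions with Spp1 at this length, held 8 in the same lists. Its difference was -2.83 (11.0 ± 2.68 against 13.83 ± 1.17, n = 6 lists each) and missed the threshold (exact permutation p = 0.0625).

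A region between the pair separated the elements. It lay at chr5:104373554-104376018, 60.3 kb upstream of the Spp1 start, and at equal list length was called in all 6 metapodial lists and in 0 phalanx lists. With all lines it was called in 6 and 2 (hand and foot phalanges digit III). The stretch of 1510 bp at chr5:104374155-104375664 was covered in every metapodial list and no phalanx list at equal length.

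**Figure D4:**
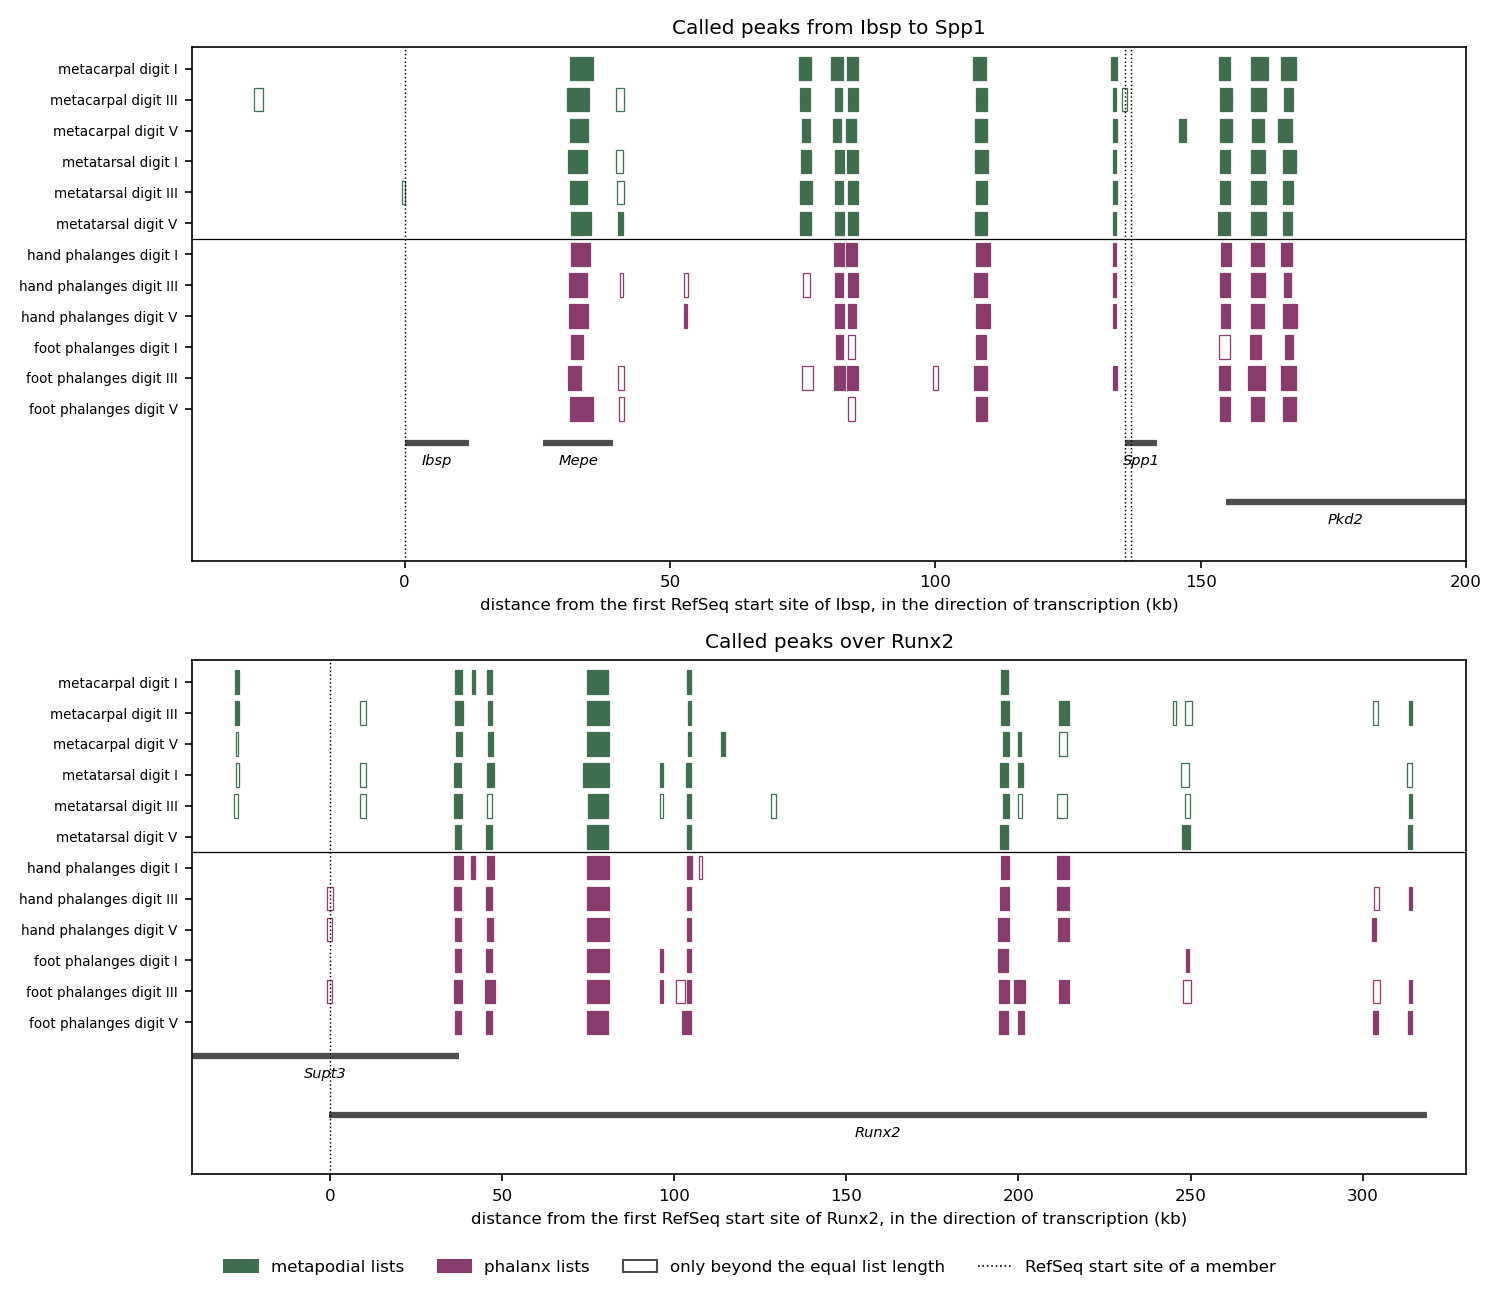
Called peaks by distance from the Ibsp start site (upper panel, through Mepe and Spp1 to Pkd2) and from the Runx2 start site (lower panel), drawn as for the Runx3 and Runx1 loci. Near 75 kb in the upper panel filled boxes stand in all 6 metapodial rows and 0 phalanx rows, and the boxes at the Runx2 start are open and lie in 3 phalanx rows.

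Runx2 itself did not pass. At equal length its lists held 10, 10 and 11 regions in metacarpals, 11, 10 and 11 in hand phalanges, 11, 9 and 11 in metatarsals and 10, 13 and 11 in foot phalanges. The difference between the elements was 0.67 (11.0 ± 1.1 against 10.33 ± 0.82, n = 6 lists each, exact permutation p = 0.75). Runx1 differed by 1.83 (exact permutation p = 0.188), although 1 region inside it (chr16:92673172-92676345, 22.6 kb downstream of the proximal start, also named after its values were seen) was called in 5 phalanx lists and 0 metapodial lists with all lines. Cbfb differed by 1.67 and Sp7 by 1.5 (both exact permutation p = 0.25), Mef2c by -1.67 (exact permutation p = 0.25) and Mmp13 by -0.17.

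Digit I against digits III and V. At equal list length Runx1, Runx3 and Sp7 had more called regions in digit I (3 of 10 members, against 7.78% of all genes), and Ibsp had fewer (1 of 10, against 2.52%). With all lines Sp7 alone passed, with more in digit I (1 of 10, against 1.71%). The smallest adjusted p over all genes was 0.45 at equal length.

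For Runx1 the digit I lists held 19 regions in the metacarpal, 19 in the hand phalanges, 18 in the metatarsal and 22 in the foot phalanges. The other 8 lists ranged from 12 to 18, with a median of 14.0, and 18 was reached only in foot phalanges digit V. The means were 19.5 ± 1.73 (SD, n = 4 lists) and 14.38 ± 1.77 (n = 8), a difference of 5.12 (exact permutation p = 0.0123, the smallest possible). It was 3.75 with 100 kb and 1.75 with 10 kb, and with any single list left out it lay between 4.29 and 5.64 and passed. With all lines the difference was 4.5 and did not pass (exact permutation p = 0.0741). Of the 31 regions, 16 were called in a larger share of digit I lists and 4 in a smaller, which restates the same calls.

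The region that separated digit I with all lines lay inside Runx1 (chr16:92630107-92634623), 65.0 kb downstream of the proximal start. It was called in all 4 digit I lists and in none of the other 8, with 4079 bp covered in all 4. Only the metacarpal and foot phalanx lists of digit I kept it at equal length. It was the only separating region near the members with all lines (1 of 227, against 0.418% of all regions). At equal length 2 of 192 separated a class, the distal Runx3 start site and the region between Ibsp and Spp1, against 0.529%.

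Sp7 held 22, 20, 19 and 23 regions at equal length in digit I (metacarpal, hand phalanges, metatarsal and foot phalanges), and the other lists ranged from 16 to 21 with a median of 18.0. The difference was 2.88 at equal length (21.0 ± 1.83 against 18.12 ± 2.1, n = 4 and 8 lists, exact permutation p = 0.0247) and 2.75 with all lines (exact permutation p = 0.0123). No Sp7 region was called in a smaller share of digit I lists than of the others, and 8 of 25 were in a larger share. The window of 200 kb holds 18 other genes, and with 100 kb the difference was 1.88 (exact permutation p = 0.0741) and with 10 kb 0.88 (exact permutation p = 0.185). Without foot phalanges digit I it was 2.21 (exact permutation p = 0.296), without metacarpal digit I 2.54 and without hand phalanges digit I 3.29 (both exact permutation p = 0.0741). With all lines it was 2.0 without foot phalanges digit I (exact permutation p = 0.222). There it was 2.75, 2.46 and 2.61 without metacarpal digit III, hand phalanges digit III or hand phalanges digit V (each exact permutation p = 0.0556).

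Runx3 differed by 3.5 (21.5 ± 3.11 against 18.0 ± 2.93, n = 4 and 8 lists, exact permutation p = 0.0123). The digit I lists held 20, 25, 18 and 23 and overlapped the other 8, which ranged from 14 to 22. It was 1.88 with 100 kb (exact permutation p = 0.0123) and 0.75 with 10 kb (exact permutation p = 0.0988). The difference was 2.33 without hand phalanges digit I (exact permutation p = 0.0741), 3.0 without foot phalanges digit I (exact permutation p = 0.0741), 2.93 without metacarpal digit III and 3.07 without metacarpal digit V (both exact permutation p = 0.0556). Ibsp held 12, 11, 13 and 8 regions in digit I and 8 to 15 in the others, a difference of -2.12 (exact permutation p = 0.0247). With a single list left out it passed only without foot phalanges digit III or V, and it was -1.12 without foot phalanges digit I (exact permutation p = 0.593). It was -0.38 with 100 kb (exact permutation p = 0.667) and 0.0 with 10 kb.

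Digits III and V. With all lines Runx2, Cbfb, Ibsp and Spp1 had more called regions in digit III (4 of 10 members, against 24.9% of all genes), and Runx1 and Runx3 had fewer in digit V (2 of 10, against 9.53%). At equal list length 0 members passed for digit III (against 8.39% of all genes in either direction) or digit V (against 2.51%). Spp1 was the only member whose digit III lists (14, 13, 13 and 13) did not overlap the other 8 (9 to 12) with all lines. The share of all genes without such overlap was not counted, so this is not a trait particular to Spp1.

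Runx2 held 17 regions in 3 of the 4 digit III lists and 13 in hand phalanges digit III, and 10 to 15 in the other 8 lists. The difference was 4.0 (16.0 ± 2.0 against 12 ± 1.51, n = 4 and 8 lists, exact permutation p = 0.0123) with all lines and -0.25 at equal length (exact permutation p = 0.765). For Cbfb it was 2.25 and -0.12, for Ibsp 4.5 and 1.25 and for Spp1 2.5 and 0.38 in the same order. Runx1 in digit V differed by -5.25 with all lines (exact permutation p = 0.0247) and -2.0 at equal length, and Runx3 by -4.12 (exact permutation p = 0.0494) and -1.75. Runx2 and Spp1 passed whichever list was left out with all lines. Cbfb passed in 5 of 12 such fits, Ibsp in 7, Runx1 in 7 and Runx3 in 2, with an exact permutation p of at most 0.148 in the others. Leaving out metacarpal digit V gave -4.0 for Runx1 and leaving out metatarsal digit V gave -3.04 for Runx3, both with that p. The list lengths moved with these differences: digit III lists were the longer ones, and the members' median difference in digit III was 1.88 with all lines, against 1.12 for all genes, and -0.19 at equal length.

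Hindlimb against forelimb. No member passed with all lines (0 of 10, against 1.65% of all genes) or at equal list length (0 of 10, against 2.56%) and the limbs overlapped for every member at both lengths. The largest with all lines was that of Runx1, 3.83 regions, from a hindlimb mean of 21.17 ± 3.43 and a forelimb mean of 17.33 ± 4.03 (SD over 6 lists, exact permutation p = 0.0625). Hindlimb lists of Runx1 ranged from 15 to 24 and forelimb lists from 12 to 23. At equal length that difference was 1.5 (exact permutation p = 0.125), and those of Sp7 and Ibsp were 2.17 and -1.83 (exact permutation p = 0.188 and 0.25). No region near a member separated the limbs at either length. The plot of differences sets each member beside the spread of all genes.

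**Figure D5:**
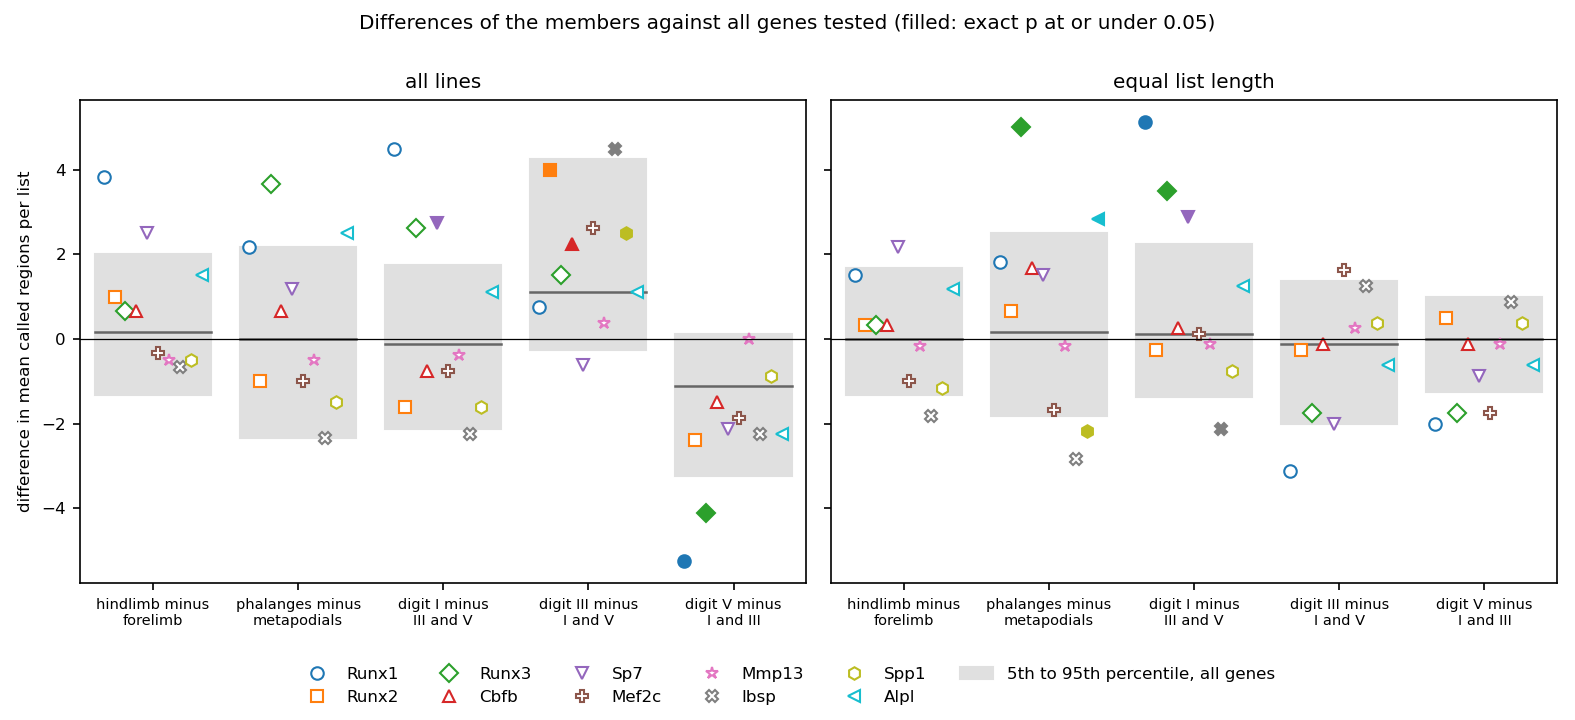
Difference in mean called regions per list (y axis) for each comparison (x axis), with all lines (left) and at equal list length (right); grey bars span the 5th to 95th percentile of all genes tested, grey lines their median and filled symbols pass the exact test. Runx3 in phalanges (5.0) and Runx1 in digit I (5.12) lie above the grey bars at equal length, and the filled digit III symbols of the left panel are open in the right.

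Other genes of the same pathways were counted with the same test, in lists chosen with earlier results known. Of 23 other genes of hypertrophy and its control, 1 was higher and 1 lower in phalanges at equal length (8.7%), near the share of all genes (5.58% higher and 3.47% lower). They were Mmp9, a gelatinase of the cartilage to bone front, by 2.67 regions and Hif1a, the oxygen-regulated factor of growth plate survival, by -4.33 (both exact permutation p = 0.0312). In digit I 3 were higher and 1 lower, against 7.78% and 2.52% of all genes, namely Vegfa (2.62), Hdac5 (3.25), Mmp9 (1.75) and Foxa2 (-3.5). Their promoters were covered in all lists in 17 of 18 cases, among them Ihh, Pth1r and Mef2d, and that of Col10a1, the collagen of hypertrophic cells, in 6 lists.

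Of 22 other genes of osteoblasts and mineral matrix, 6 were higher and 3 lower in phalanges at equal length (40.9%, against 5.58% and 3.47% of all genes), and the list's median difference was 0.42 regions against 0.17 for all genes. The largest were Dlx3 (4.17), Msx2 (3.67), Twist2 (3.5) and Col1a1 (3.0), all with exact permutation p = 0.0312. The first 3 encode transcription factors of skeletal progenitors and Col1a1 the main bone collagen. The genes of this list are not independent of each other or of the members. Col1a1 and Dlx3 shared 17 regions, Bglap shared 25 of its 25 with Bglap2, and Mepe, Dmp1 and Dspp shared 16 of 16, 13 of 17 and 11 of 15 with Ibsp. With all lines 1 was higher (Dlx3) and 0 lower. Promoters of this list were covered in all lists in 10 of 15 cases, and those of Bglap, Mepe and Phex in none.

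Of 19 co-factors and modifiers of Runx proteins, 2 were higher and 0 lower in phalanges at equal length (against 5.58% and 3.47% of all genes): the co-repressor Cbfa2t3 (4.17) and Smad3 of TGF-beta signalling (3.67). In hindlimb 3 were higher and 0 lower (15.8%), namely Smad3 (3.33), Hdac3 (1.83) and Cbfa2t2 (1.5). Of all 20597 genes, 337 were higher and 190 lower in hindlimb (2.56% in either direction). All 14 of their promoters with an entry were covered in every list, among them the co-repressors Tle1 to Tle4 and the co-activator Ep300.

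At equal length few cell type markers passed between the elements. Higher in phalanges were 1 of 10 skeletal muscle, 1 of 11 blood and macrophage and 1 of 8 nerve and Schwann cell markers, against 5.58% of all genes. Lower were 1 of 12 chondrocyte and 1 of 8 nerve and Schwann cell markers, against 3.47%. No endothelial, osteoclast, epidermal or tendon and ligament marker passed. The median difference over the 12 chondrocyte markers was -1.08 regions and over the 11 blood and macrophage markers 1.0, against 0.17 for all genes. The other marker lists lay between these: endothelial -0.58, osteoclast -0.33, tendon and ligament -0.17, epidermal 0.0, skeletal muscle 0.42 and nerve and Schwann cell 0.75. Regions shared between marker windows were not counted, so these medians need not be independent. The chondrocyte marker Matn1 and the macrophage marker Laptm5 had identical values in digit III (8.0 ± 0.82, against 11.62 ± 2.56 in the other digits, SD over lists). Blood and macrophage promoters covered per list ranged from 1 to 3 in metapodials and from 2 to 3 in phalanges. In digit I, 2 of 9 epidermal markers (Krt14 and Krt15, whose windows were not checked for shared regions) were higher. So were 1 each of the muscle, blood and macrophage, and tendon and ligament markers, against 7.78% of all genes. Lower were 1 of 10 endothelial and 1 of 12 chondrocyte markers, against 2.52%. Among blood and macrophage promoters, those of Hba-a1, Cd68 and Klf1 were covered in 11, 10 and 8 lists and those of Ptprc, Gata1, Itgam, Laptm5 and Lyz2 in 0. Among epidermal ones, Epcam and Dsp were covered in 12 lists and Krt5, Krt14 and Krt10 in 0. The part of other cell types in the differences of Runx1, Runx3, Sp7, Alpl, Spp1 and Ibsp was not tested.

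The genes on other chromosomes whose called regions followed those of Runx2 most closely over the 12 lists at equal length were Gm7135 and Macir (both Pearson r = 0.84) and Osr1 (r = 0.81). They held 2 to 4, 3 to 5 and 1 to 7 regions per list. The lists share their peak calling, and Runx2 itself varied only from 9 to 13, so these values are a description.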

How the data were processed

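ATAC-seq peak lists of 12 groups were used, each made by the authors from 3 pooled libraries at an irreproducible discovery rate of 0.05, per the file names. MACS3, Picard 2.9.0 and Bowtie2 2.3.4.1 are listed, with the build mm10, in the submitters' processing notes. Trimming, read shift and filters are not given in the sources used here. Each deposited line gives a peak with a score, a fold enrichment over background, a −log10 p and a summit position, all as the authors' peak caller wrote them. The lists are ordered by significance, and their lowest −log10 p ranged from 23.0 to 49.6, so the same region can miss a shorter list by rank alone. Depth per library was unknown, so no counting error could be given. The labels say that each library came from 1 litter, but each list pools them, so p-values measure the spread between lists only.

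Peaks of all 12 lists were merged where they shared at least 1 bp. Regions were assigned to gene bodies with 200 kb on each side, so 1 region can belong to several genes, and gene positions, start sites and promoter sequences are RefSeq's (GRCm38.p6). Regions were called inside a gene or between genes; exons and introns were not told apart. Differences in mean called regions per list were tested by exact permutation within strata (64 labellings for limb and element, 81 for a digit) for every protein-coding gene, with Benjamini-Hochberg adjustment over all of them. The code was tested on simulated data. Python 3.11.15, numpy 2.4.6, pandas 2.3.3 and matplotlib 3.10.9 were used.

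The members and gene lists were chosen with earlier results of these data known. All 10 members are named, with regions at their start sites, regions that separate a class, and the region called in all lists nearest the start. Of each other list up to 4 genes that passed are named per comparison, and the 3 genes most like Runx2. The Runx1, Runx3 and Mmp13 sequences, the choice of Alpl and Spp1 among the target genes and the further regions inside or near Runx1, Runx2, Runx3 and Spp1 were chosen after their values were seen. Alternatives were equal list length, 50% cover, the more significant 50% of each list, 500-bp summit windows, flanks of 100 and 10 kb, nearest-gene assignment, scaling per 10000 called regions and leaving out each list. Leaving out lists and narrower flanks at equal length, stretches of at least 200 bp and start-site coverage at equal length were added after seeing the data.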

Additional observations from a re-analysis of the deposited data

Results flagged for a closer look

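Of 70 groups of 4 or 6 lists, 5 had a list flagged by Dixon's criterion. For continuous values chance alone gives about 1 in 20, but these are small whole numbers with ties, so that rate need not hold. Where the other lists of a digit were equal, a step of 1 region was enough, as for Spp1 below. Runx2 had 17 called regions in foot phalanges digit III, against 11 to 13 in the other phalanx lists, and 13 in hand phalanges digit III, against 17 in the other 3 digit III lists. Mmp13 had 4 in metacarpal digit III and 3 in metacarpal digit V, against 2 in the other lists of each digit. Spp1 had 14 in metacarpal digit III, against 13 in the other digit III lists. Metacarpal digit III, which holds 2 of these values, was the longest list.

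For Cbfb the limb difference ran in opposite directions in the elements. Hindlimb minus forelimb was 2.33 regions in metapodials (1 to 5 across the digits) and -1.0 in phalanges (-1 in all 3 digits). The gap between them was 3.33 regions, and this difference was not tested. It was singled out among 20 pairs of differences.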

How the results depend on the processing

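No paired analysis was possible because the lists pool the replicates of each group, so replicate numbers could not form a block. The exact tests did compare lists matched on the other factors. At equal list length the number of passing members moved from 0 to 3 for element, 1 to 4 for digit I, 4 to 0 for digit III and 2 to 0 for digit V, and separating regions moved from 0 to 2 for elements and from 1 to 0 for a digit. With 50% cover the passing members were 1 for limb, 1 for element, 2 for digit I, 2 for digit III and 0 for digit V, with 1 region separating the limbs and 39 of the 93 called in all lists. With the more significant 50% of each list they were 1 for element and 2 for digit III, with 0 regions separating a digit and 59 in all lists. With 500-bp summit windows 1 passed for digit V and 0 regions separated a digit. With 100 kb, 2 passed for digit I. With 10 kb, 1 passed for digit III and 0 for digit V, with 25 regions in all lists. With nearest-gene assignment 1 passed for digit III, with 30 in all lists. Per 10000 called regions, 2 passed for element, 2 for digit I, 1 for digit III and 0 for digit V. Leaving out each list gave 0 to 1 for limb and for element, 0 to 2 for digit I, 2 to 4 for digit III and 0 to 3 for digit V, with 0 to 2 regions separating the elements, 1 to 2 a digit and 93 to 97 in all lists. The smallest p was then 0.0312 for limb or element and 0.0185 or 0.037 for a digit.

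The digit III difference of Runx2 reversed to -0.25 at equal list length. That of Cbfb reversed to -0.12 at equal list length and to -0.35 per 10000 called regions. The cause was not tested. At equal length the Ibsp digit I difference was -0.38 with 100 kb and 0.0 with 10 kb. Pooled lists without read counts limit every call to presence or absence at the list's own threshold.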
